A study of Mus musculus with 15 samples.

Results

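The genes described here are 10 components of transforming growth factor-β (TGF-β) signaling, namely the ligands Tgfb1, Tgfb2 and Tgfb3, the type II receptor Tgfbr2, the signal transducers Smad2, Smad3 and Smad4, the inhibitor Smad7, the co-repressor Ski and the TGF-β-induced gene Tgfbi. They were taken by symbol from a table of 55335 genes, in which each of the 10 had 1 row, and were followed through all 15 samples. The RNA came from tumor-associated macrophages (TAMs), sorted by CD11b and F4/80 from Hepa1-6 tumors grown in the liver of C57BL/6 mice. Hepa1-6 is a mouse hepatoma line, injected here into the left liver lobe after stable lentiviral transfer of a control construct, of miR-144 or of miR-451a, and the mice were killed 3 weeks later. Each of the 3 groups had 5 samples. All tumor cells carried a luciferase reporter, and it was the tumor cells, not the macrophages, that were made to overexpress the miRNA. The labels do not give the age or sex of the mice or say that the 5 samples of a group came from separate mice, so the p-values measure only the spread between these samples. A legend of the paper states fewer replicates for this sequencing than the labels list, and how these relate to the deposited samples is not given.

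TGF-β ligands are secreted in a latent form and, once released, bind Tgfbr2, which recruits and phosphorylates the type I receptor Tgfbr1. Tgfbr1 then phosphorylates Smad2 and Smad3, which join Smad4, enter the nucleus and act on target genes. Smad7 blocks the active receptor and Ski holds SMAD complexes in a repressed state, and both are negative regulators of the pathway. In macrophages TGF-β1 is usually counted with the cytokines of alternative (M2-type) polarization, and the study asked which cytokines and effector molecules of TAMs differ when the tumor cells carry the miRNAs.

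The mature miRNAs that define the groups lie in 1 cluster on mouse chromosome 11 (RefSeq, GRCm38.p6, plus strand), miR-144-5p at chr11:78073010-78073032, miR-144-3p at chr11:78073047-78073066 and miR-451a at chr11:78073186-78073207. The labels name miR-144 without an arm, so both arms are shown. Capitals mark the seed, bases 2 to 8, and no seed is shared among the 3.
mmu-miR-144-5p: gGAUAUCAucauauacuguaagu
mmu-miR-144-3p: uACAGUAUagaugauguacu
mmu-miR-451a: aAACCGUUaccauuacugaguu

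Levels were deposited as FPKM, fragment counts scaled by transcript length and by sequencing depth, which allows comparison between genes per length. The 7 macrophage markers all averaged 1 FPKM or more, and the 4 hepatocyte markers, Alb among them, were listed at 0 in every sample. The macrophage markers were not level across the groups, which bears on every gene below. Their summed level, mostly Lyz2, was 8694 to 9526 FPKM in the controls, 14690 to 16550 with miR-144 and 14380 to 15590 with miR-451a. The F4/80 gene Adgre1 had means of 137.0, 361.0 and 354.3 FPKM, Csf1r of 401.3, 691.0 and 693.3, and Fcgr1 of 18.0, 121.9 and 117.7, whereas Cd68 went the other way with 1444, 919.3 and 910.4. The summed level of 6 T cell markers was 1.197 to 1.62 FPKM, 5.61 to 9.01 and 5.26 to 9.56, nearly all of it Cd4, with Cd3e and Cd3g at 0. The part of these shifts in the differences of Tgfbr2, Smad3, Tgfbi and the other genes was not tested. All 10 miRNA samples stood apart from the controls over genes that averaged 1 FPKM or more. Correlation of log2(FPKM + 1) was 0.900 to 0.925 between control and miRNA samples, 0.982 to 0.993 within a group and 0.981 to 0.990 between miR-144 and miR-451a samples. Differences against control were therefore the rule. By limma with Benjamini-Hochberg adjustment over these 11419 genes, 47.1% were higher and 20.1% lower with miR-144, and 48.1% were higher and 20.3% lower with miR-451a. Without the filter, over 29540 genes, 23.1% and 24.5% were higher. Because the median of the 11419 genes, called all genes tested below, itself lay at a log2 fold change of 0.13 with miR-144 and 0.14 with miR-451a, small differences depended on the scaling. Both comparisons use the same 5 control samples. In bulk RNA, fewer cells of a type and less RNA per cell cannot be told apart.

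Against control, 8 of the 10 genes were higher in TAMs from miR-144 tumors and 8 in TAMs from miR-451a tumors, of which Smad4 was not called after median centring. On the log2(FPKM + 1) scale Tgfbi, Smad3, Tgfb3 and Tgfbr2 differed most, with ratios of mean FPKM from 2.14 to 7.71 (Tgfb2, with ratios of 2.09 and 2.46, ranks lower on that scale because of its low level), whereas Tgfb1, the most abundant ligand, was not called in either. Smad2 was lower by a small margin with miR-144 and was not called with miR-451a. Of the 8 genes that averaged 1 FPKM or more, 6 were higher in each comparison, beside the background of 47.1% and 48.1% of all genes tested, and the other 2 higher genes, Tgfb2 and Smad7, were under that mean. The control samples and the miRNA samples did not overlap for the same 6 of 8 genes, where this held for 53.9% of the 11419 genes in the miR-144 comparison and for 55.2% in the miR-451a comparison. Nor did they for Tgfb2 and Smad7, beside 26.9% and 27.9% of the 29540 genes above 0. Over the 10 genes the median log2 fold change was 0.36 for miR-144, and 0.46 for miR-451a.

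**Figure D1:**
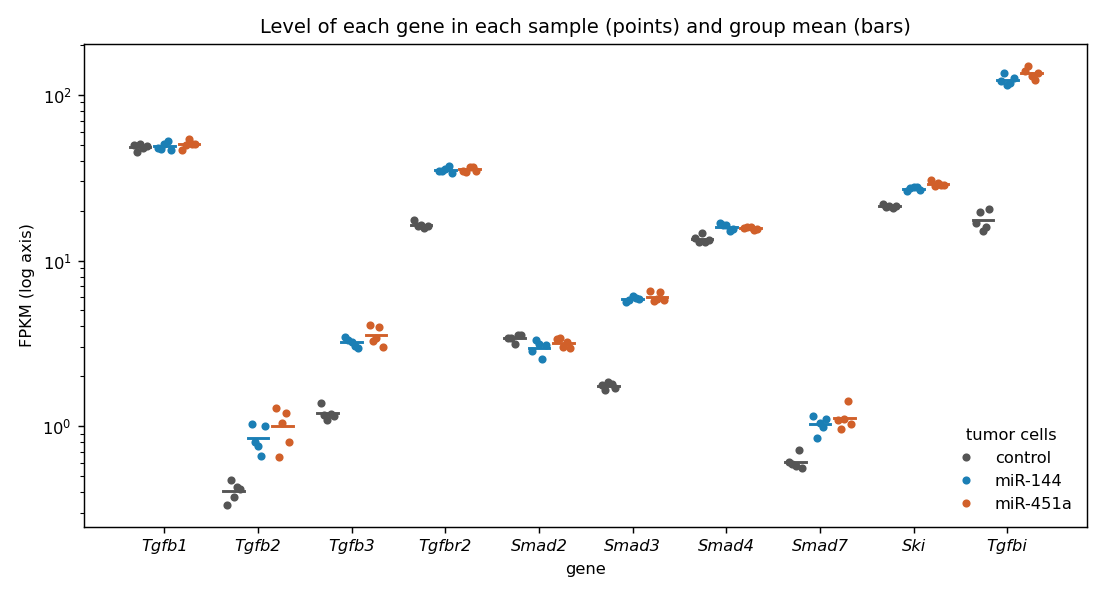
FPKM (log axis) of the 10 genes in each of the 15 samples, with points for samples, short bars for group means and colors for the 3 groups. Tgfbi lies between 15.02 and 20.4 FPKM in the controls and between 114.1 and 149.5 in the miRNA samples, while the 3 groups of Tgfb1 lie on top of each other.

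In control TAMs the order of levels was Tgfb1, Ski, Tgfbi and Tgfbr2, Smad4, Smad2, Smad3, Tgfb3, Smad7 and Tgfb2, and it was the same in all 5 samples except that Tgfbi and Tgfbr2 changed places. Tgfb1 was first in every control sample. In all 10 miRNA samples Tgfbi came first, followed by Tgfb1, Tgfbr2 and Ski. Smad3 stood above Smad2 in each of these 10 samples and below it in each control. Smad2 and Tgfb3 took the seventh and eighth place in either order in both miRNA groups.

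The 3 ligands did not move together. Tgfb1 measured 49.8, 45.1, 50.4, 48.1 and 48.8 FPKM in the control samples 1 to 5, 47.5, 47.0, 50.2, 53.0 and 46.5 FPKM in the miR-144 samples and 46.2, 49.5, 54.5, 50.5 and 50.2 FPKM in the miR-451a samples. The groups overlapped throughout. The log2 fold change was 0.01 with miR-144 (95% interval -0.09 to 0.11, adjusted p = 0.857) and 0.05 with miR-451a (95% interval -0.05 to 0.15, adjusted p = 0.368). Relative to the median of all genes, that is after median centring, Tgfb1 was lower with miR-144 by this test (-0.12, adjusted p = 0.0449) and at -0.10 with miR-451a (adjusted p = 0.112), while rescaling to TPM put it at 0.08 and 0.13 (adjusted p = 0.144 and 0.0221), so that its direction was set by the scaling. Platelets are a rich source of TGF-β1 in tissue, and the summed level of 5 platelet markers ran from 10.2 to 17.9 FPKM in the controls, from 6.37 to 13.1 with miR-144 and from 5.17 to 15.01 with miR-451a. This sum is mostly Pf4, with means of 12.5, 6.65 and 7.32 FPKM, and the other 4 markers had higher means in the miRNA groups, for example Gp1ba with 0.301, 0.623 and 0.613 FPKM. Their part in the Tgfb1 level was not tested.

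Tgfb3, a ligand best known from development and wound repair, was present at a far lower level and differed in every sample. Its control values were 1.38, 1.18, 1.09, 1.18 and 1.16 FPKM, against 3.45, 3.29, 3.24, 3.06 and 2.98 FPKM with miR-144 and 4.06, 3.25, 3.41, 3.97 and 3.01 FPKM with miR-451a. The highest control sample lay well under the lowest miRNA sample. The log2 fold change was 0.94 ± 0.06 (SE) with miR-144 (adjusted p = 3.80e-09) and 1.04 ± 0.06 with miR-451a (adjusted p = 1.04e-09). Antisense genes overlap exons of Tgfb3 (Gm37804 and Gm48008), with levels of at most 0.297 and 0.0388 FPKM, and whether the counting used strand is not given in the sources used here.

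Tgfb2 was the lowest of the ligands. It measured 0.335, 0.475, 0.376, 0.427 and 0.417 FPKM in the controls, 1.03, 0.7996, 0.755, 0.657 and 1.002 FPKM with miR-144 and 1.29, 0.654, 1.05, 1.21 and 0.804 FPKM with miR-451a. No miRNA sample overlapped the controls, although the spread within the miRNA groups was wide. In the fit over all genes above 0 the log2 fold change was 0.39 ± 0.09 with miR-144 (limma adjusted p = 0.00263) and 0.50 ± 0.09 with miR-451a (adjusted p = 0.000349). The size depended on the processing, with 0.26 and 0.35 after median centring, 0.74 and 0.92 as TPM and 0.90 and 1.09 with a pseudocount of 0.1, all past the threshold. These values rest on an implied 41 to 187 fragments per sample. Tgfb2 and Tgfb3 are also expressed by mesenchymal cells, and the summed level of 7 stellate cell and fibroblast markers moved with the groups, from 106.8 to 132.8 FPKM in the controls, 142.9 to 211.1 with miR-144 and 181.7 to 231.0 with miR-451a. Of these markers 5 had a mean of at least 1 FPKM and Lrat, which defines stellate cells, was listed at 0 in every sample. Their part in the Tgfb2 and Tgfb3 levels was not tested.

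In summed ligand FPKM, Tgfb1 made up 96.8% ± 0.26 (SD, n = 5) in the controls, 92.3% ± 0.78 with miR-144 and 91.7% ± 1.45 with miR-451a. Tgfb3 accounted for 2.39% ± 0.22, 6.08% ± 0.49 and 6.49% ± 0.98, and Tgfb2 for 0.816% ± 0.139, 1.62% ± 0.37 and 1.83% ± 0.51. The summed level itself was 50.1 ± 2.0, 52.9 ± 2.5 and 54.7 ± 2.8 FPKM. These shares are given as a description, without a test.

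The receptor gene Tgfbr2, whose product binds the ligand and starts the signal, was about doubled. It measured 17.5, 16.2, 16.4, 15.8 and 16.3 FPKM in the controls, 34.7, 34.5, 35.6, 37.0 and 34.0 FPKM with miR-144 and 34.9, 34.5, 36.6, 36.9 and 34.7 FPKM with miR-451a. The spread within each group was small beside the gap between the highest control and the lowest miRNA sample. The ratio of means was 2.14 with miR-144 (log2 fold change 1.05 ± 0.03, adjusted p = 7.02e-13) and 2.16 with miR-451a (1.07 ± 0.03, adjusted p = 5.29e-13). Tgfb1 exceeded Tgfbr2 2.95-fold ± 0.13 in FPKM in the controls, 1.39-fold ± 0.03 with miR-144 and 1.41-fold ± 0.07 with miR-451a.

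The receptor-activated SMADs differed from each other. Smad3 measured 1.77, 1.65, 1.86, 1.79 and 1.71 FPKM in the controls, 5.60, 5.78, 6.14, 5.95 and 5.86 FPKM with miR-144 and 6.53, 5.69, 5.82, 6.48 and 5.75 FPKM with miR-451a. Every miRNA sample had at least 5.60 FPKM and no control more than 1.86. The ratio of means was 3.34 with miR-144 (log2 fold change 1.32 ± 0.04, adjusted p = 5.87e-13) and 3.45 with miR-451a (1.35 ± 0.04, adjusted p = 3.85e-13).

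Smad2, the close homolog of Smad3, went the other way by a small amount or not measurably. Its values were 3.41, 3.40, 3.15, 3.57 and 3.56 FPKM in the controls, 2.85, 3.32, 3.12, 2.55 and 3.08 FPKM with miR-144 and 3.35, 3.41, 3.01, 3.22 and 2.96 FPKM with miR-451a, and both miRNA groups overlapped the controls. The log2 fold change was -0.15 ± 0.05 with miR-144 (adjusted p = 0.0204) and -0.08 ± 0.05 with miR-451a (95% interval -0.19 to 0.04, adjusted p = 0.217). The miR-144 call was lost without miR-144 replicate 4 (-0.11, adjusted p = 0.0559) and on the TPM scale (-0.12, adjusted p = 0.133). After median centring Smad2 was lower in both comparisons, by -0.28 (adjusted p = 0.000131) and -0.22 (adjusted p = 0.00113), and so it was after quantile normalization, by -0.30 (adjusted p = 7.33e-05) and -0.23 (adjusted p = 0.000604). Between miR-451a and miR-144 Smad2 was not called (difference 0.07, 95% interval -0.04 to 0.19, limma adjusted p = 0.981), and a difference within that interval remains possible.

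The ratio of Smad3 to Smad2 in FPKM was 0.516 ± 0.045 (SD, n = 5) in the controls, with a range of 0.480 to 0.592. It was 1.98 ± 0.22 with miR-144, from 1.74 to 2.33, and 1.90 ± 0.13 with miR-451a, from 1.67 to 2.01. A ratio within a sample does not change with the scaling of the sample, so the reversal of the order of Smad2 and Smad3 holds under TPM as well. The sum of both was 5.17 ± 0.15 FPKM in the controls, 8.85 ± 0.36 FPKM with miR-144 and 9.25 ± 0.52 FPKM with miR-451a. No test was made of these sums and ratios.

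**Figure D2:**
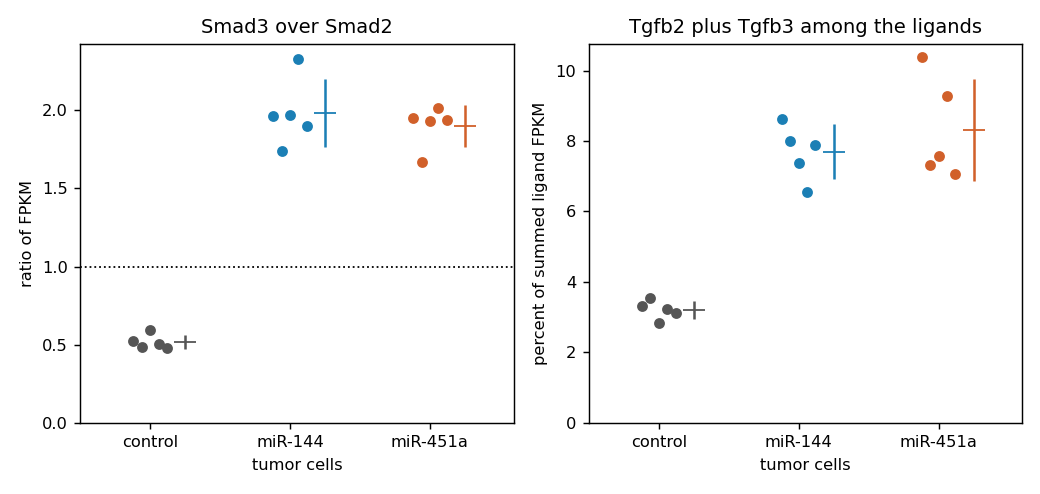
Ratio of Smad3 to Smad2 in FPKM (left, dotted line at 1) and summed Tgfb2 and Tgfb3 as a percent of the FPKM of the 3 ligands (right), with a point for each sample and the mean ± SD of the 5 samples of a group beside them. The controls lie between 0.480 and 0.592 on the left and the miRNA samples between 1.67 and 2.33, on the other side of 1.

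Smad4, the partner shared by all receptor-activated SMADs, was the most abundant SMAD gene of the set. It measured 13.7, 13.0, 14.7, 12.9 and 13.4 FPKM in the controls, 16.9, 16.4, 16.3, 15.03 and 15.5 FPKM with miR-144 and 15.7, 16.0, 15.8, 15.3 and 15.6 FPKM with miR-451a. The highest control sample lay close under the lowest miRNA samples without overlapping them. The log2 fold change was 0.23 ± 0.04 with miR-144 (adjusted p = 8.42e-05) and 0.20 ± 0.04 with miR-451a (adjusted p = 0.000248). Relative to the median of all genes neither was called (0.10, adjusted p = 0.0504, and 0.06, adjusted p = 0.218, after median centring). Smad4 stood 2.62-fold ± 0.20 above the sum of Smad2 and Smad3 in the controls, 1.81-fold ± 0.11 with miR-144 and 1.70-fold ± 0.11 with miR-451a.

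Both negative regulators were higher. Smad7, the inhibitory SMAD, measured 0.607, 0.589, 0.576, 0.718 and 0.556 FPKM in the controls, 1.16, 0.846, 1.05, 0.990 and 1.11 FPKM with miR-144 and 1.09, 0.963, 1.11, 1.41 and 1.04 FPKM with miR-451a. No miRNA sample fell within the range of the controls. In the fit over all genes above 0 the log2 fold change was 0.33 ± 0.06 with miR-144 (limma adjusted p = 0.000511) and 0.40 ± 0.06 with miR-451a (adjusted p = 0.000102), on an implied 57 to 184 fragments per sample, and the ratios of mean FPKM were 1.69 and 1.84. The log2 fold changes were 0.20 and 0.25 after median centring, 0.60 and 0.70 as TPM and 0.67 and 0.78 with a pseudocount of 0.1, all past the threshold. In FPKM the ratio of Smad7 to Smad3 was 0.347 ± 0.035 in the controls, 0.176 ± 0.023 with miR-144 and 0.185 ± 0.021 with miR-451a.

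Ski, a nuclear co-repressor that binds Smad2, Smad3 and Smad4, varied little within groups. Its control values were 21.9, 21.1, 21.5, 20.8 and 21.3 FPKM, against 26.4, 27.4, 27.6, 27.7 and 26.6 FPKM with miR-144 and 30.5, 28.1, 29.2, 28.5 and 28.6 FPKM with miR-451a. The 3 groups occupied 3 separate ranges. The log2 fold change was 0.33 ± 0.03 with miR-144 (adjusted p = 4.20e-08) and 0.43 ± 0.03 with miR-451a (adjusted p = 2.31e-09), and it was 0.20 and 0.28 after median centring, still past the threshold.

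Tgfbi encodes a secreted matrix protein that binds integrins and collagens and is induced by TGF-β in many cell types. It measured 16.9, 19.6, 15.02, 15.9 and 20.4 FPKM in the controls, 121.1, 136.1, 114.1, 118.0 and 127.2 FPKM with miR-144 and 138.6, 149.5, 129.7, 123.0 and 135.8 FPKM with miR-451a. The lowest miRNA sample lay far above the highest control. The ratio of means was 7.02 with miR-144 (log2 fold change 2.75 ± 0.08, adjusted p = 2.09e-13) and 7.71 with miR-451a (2.88 ± 0.08, adjusted p = 1.15e-13). In absolute log2 fold change Tgfbi stood at the 99.4th percentile of the 11419 genes with miR-144 and at the 99.5th with miR-451a, Smad3 at the 95.7th in both, and Tgfbr2 at the 92.8th and 92.7th.

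**Figure D3:**
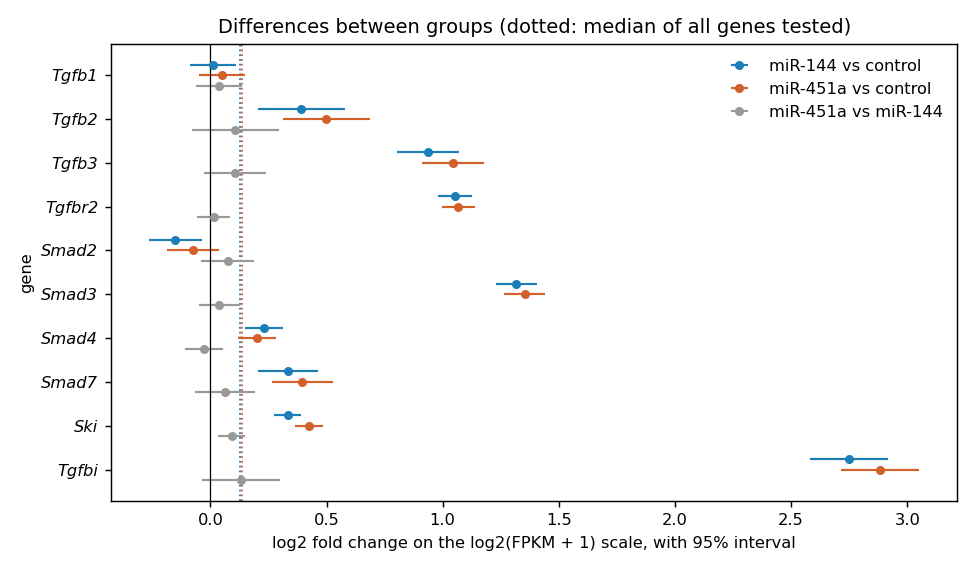
Log2 fold change of the 10 genes on the log2(FPKM + 1) scale with 95% intervals (lines) in the 3 comparisons, and the median of all genes tested in each miRNA comparison against control (dotted lines, 0.13 and 0.14). Tgfbi, Smad3, Tgfbr2 and Tgfb3 lie far to the right of the dotted lines, Tgfb1 and Smad2 to their left, and the miR-451a vs miR-144 values stay near 0.

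Between miR-451a and miR-144, limma called none of the 10 genes and none of the 11419 genes (0%, with 596 genes at an unadjusted p under 0.05). The differences of the 10 genes ran from -0.03 to 0.13 on the log2 scale. For Tgfbi the difference was 0.13 (95% interval -0.04 to 0.30), for Tgfbr2 0.01 (-0.06 to 0.09) and for Smad3 0.04 (-0.05 to 0.13), so that differences of these sizes remain possible. Ski had an unadjusted p of 0.00456 and its 2 groups did not overlap, as for 0.849% of all genes tested, with a difference of 0.09 (95% interval 0.03 to 0.15) and an adjusted p of 0.827. Its 2-sided exact permutation p was 0.00794, the smallest that 5 against 5 samples allow, unadjusted for the 10 genes and 3 comparisons.

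Promoters are shown for the genes of the set with the largest differences on the log2(FPKM + 1) scale that the promoter table held, Tgfbi, Smad3 and Tgfbr2 (6 of the 10 genes were matched). They are the bases before the RefSeq start site, 5′ to 3′ on the strand of the gene (GRCm38.p6), and for Tgfbi the last 63 bases of the window are left out because they lie inside the gene span of GENCODE M21. Capitals mark any of 4 motifs, searched on both strands, none overlapping another: the SMAD box CAGAC (reverse GTCTG), the AP-1 site TGACTCA, the GC box GGGCGG (reverse CCGCCC) and the PU.1 core GAGGAA (reverse TTCCTC). The Tgfbi stretch is chr13:56609336-56609522 (plus strand), that of Tgfbr2 chr9:116175364-116175613 (minus strand) and that of Smad3 chr9:63757995-63758244 (minus strand).
Tgfbi: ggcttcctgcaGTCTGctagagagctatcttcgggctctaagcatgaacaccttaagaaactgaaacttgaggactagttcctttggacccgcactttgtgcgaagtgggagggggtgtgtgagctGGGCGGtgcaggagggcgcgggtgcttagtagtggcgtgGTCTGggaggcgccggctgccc
Tgfbr2: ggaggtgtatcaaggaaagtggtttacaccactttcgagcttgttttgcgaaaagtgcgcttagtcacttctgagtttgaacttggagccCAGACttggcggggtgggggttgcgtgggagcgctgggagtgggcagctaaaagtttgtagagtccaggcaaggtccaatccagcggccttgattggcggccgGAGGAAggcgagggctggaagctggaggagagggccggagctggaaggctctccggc
Smad3: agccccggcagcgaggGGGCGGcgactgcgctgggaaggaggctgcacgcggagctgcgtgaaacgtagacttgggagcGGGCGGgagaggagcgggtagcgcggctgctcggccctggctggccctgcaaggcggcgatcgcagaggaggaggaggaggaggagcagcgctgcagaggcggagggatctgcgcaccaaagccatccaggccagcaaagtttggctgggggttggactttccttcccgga

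Tgfbi held 2 SMAD boxes, at -239 and -85 from the RefSeq start site, and 1 GC box at -124. Tgfbr2 held 1 SMAD box at -160 and 1 PU.1 core at -57, PU.1 being the factor that directs macrophage development. Smad3 held 2 GC boxes, at -234 and -171, and no SMAD box. Among 32851 promoters of 250 bases, 42.2% held a SMAD box, 32.7% a GC box, 23.3% a PU.1 core and 4.46% an AP-1 site, so that these matches are common. A match describes letters and is not evidence of binding.

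Deviations from the group means were compared over the 15 samples to see which genes varied together within groups. Tgfb1 and Tgfbr2 had the highest correlation among the 45 pairs (Pearson's r = 0.67), followed by Tgfb2 and Tgfb3 (r = 0.60), and Tgfb1 and Smad2 the lowest (r = -0.61). The median over the pairs was 0.03, with 25 pairs above 0. All genes of a sample share its depth and its mixture of sorted cells, and no p is given. Tgfbi had both the highest mean FPKM and the largest fold change of the set, and of 11419 genes those that deviated most like it were Eif3b, a translation initiation factor subunit (r = 0.92), Sec31a, a subunit of the vesicle coat that leaves the endoplasmic reticulum (r = 0.91), and Ppt1, a lysosomal thioesterase (r = 0.91).

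A list of 87 further genes of the pathway, in 6 roles, gives the surroundings of the 10. All 87 were in the table, Ctgf under this older symbol of Ccn2. Of these, 85 were above 0, and 65 averaged 1 FPKM or more. Among the 65, 43 were higher and 9 lower with miR-144, and 45 were higher and 9 lower with miR-451a, with medians of 0.35 and 0.39 against 0.13 and 0.14 over all genes tested. Over these 47.1% and 48.1% were higher and 20.1% and 20.3% lower, and the counts by role below describe the lists beside these shares and show nothing particular to a role. The split moved with the scaling. Over the 85 genes, 47 higher and 10 lower with miR-144 became 40 and 21 after median centring, and 50 higher and 10 lower with miR-451a became 42 and 23. Of the 20 genes under that mean, 4 and 5 were higher and 1 was lower in each. These come from the fit over 29540 genes, of which 23.1% and 24.5% were higher and 2851 and 2862 genes were lower. None of the 85 was called between the miRNAs. The filter kept 7 of the 65 although they were under 1 FPKM in the controls. These were Ltbp1 and Dcn, the receptors Acvr2b and Bmpr1a, and the targets Id1, Snai1 and Cx3cr1, which passed only through their level in the miRNA groups. The counts in their roles, the counts over the 65 and the medians are therefore no support for a direction. The list was also chosen with earlier results of these data known.

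Among the receptors, 9 of the 10 that averaged 1 FPKM or more were higher in both comparisons and none was lower, with Acvr2b and Bmpr1a among the 10. The summed level of 5 endothelial markers, cells that also carry receptors of this family, was 3.70 to 4.30 FPKM in the controls, 4.68 to 5.08 with miR-144 and 4.69 to 5.94 with miR-451a. Kdr made up most of it, with means of 2.80, 3.85 and 4.07 FPKM, while Pecam1 was at 0.197, 0.126 and 0.163 and Cdh5 and Tek were lower still, and their part in the receptor levels was not tested. Tgfbr1, the type I partner of Tgfbr2, went from 16.6 ± 0.63 FPKM in the controls to 38.7 ± 1.67 with miR-144 (log2 fold change 1.17 ± 0.04, adjusted p = 1.41e-12) and 38.1 ± 1.91 with miR-451a (1.15 ± 0.04, adjusted p = 1.65e-12). Per length, the levels of Tgfbr1 and Tgfbr2 were close to each other within every group. Tgfbr3, the co-receptor betaglycan, rose from 1.595 ± 0.09 FPKM to 2.54 ± 0.48 and 2.63 ± 0.44, and the activin receptor Acvr2b from 0.709 ± 0.083 to 1.39 ± 0.10 and 1.39 ± 0.07.

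Genes of latency and activation moved in both directions, with 6 higher and 3 lower of the 11 that averaged 1 FPKM or more with miR-144, and 7 higher and 3 lower with miR-451a. Ltbp1 and Ltbp2, which tether latent TGF-β to matrix or belong to the same family, rose from 0.822 ± 0.136 to 2.78 ± 0.25 and 2.61 ± 0.13 FPKM, and from 1.62 ± 0.52 to 4.12 ± 0.74 and 4.79 ± 0.93 FPKM. The membrane protease Mmp14 rose from 6.62 ± 0.45 to 14.5 ± 1.24 and 14.5 ± 2.49 FPKM. Furin, the protease that cleaves the TGF-β precursor, fell from 32.2 ± 1.09 to 21.6 ± 2.72 and 22.0 ± 2.58 FPKM (adjusted p = 4.08e-05 and 6.01e-05). The others that fell are named after their values were seen. They were Ltbp3, from 7.67 ± 0.42 to 5.35 ± 0.13 and 5.68 ± 0.16 FPKM, and Lrrc32, which displays latent TGF-β on the cell surface, from 11.4 ± 1.64 to 7.06 ± 2.47 and 7.79 ± 0.87 FPKM with overlapping groups. The integrin subunit gene Itgb8, under 1 FPKM and outside the 11, fell as well, from 0.411 ± 0.058 to 0.0243 ± 0.0127 and 0.0344 ± 0.0214 FPKM (adjusted p = 1.92e-09 and 2.50e-09).

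Of the 5 other ligands of the superfamily that averaged 1 FPKM or more, 3 were higher and 1 lower in each comparison. Inhba and Inhbb, the subunits of the activins, which also signal through Smad2 and Smad3, rose from 1.11 ± 0.14 to 3.37 ± 0.26 and 3.40 ± 0.52 FPKM, and from 1.01 ± 0.28 to 1.92 ± 0.24 and 2.20 ± 0.80 FPKM. Gdf15, a stress-induced cytokine, fell from 7.90 ± 0.92 to 3.99 ± 0.95 and 4.25 ± 1.03 FPKM. The SMADs of the bone morphogenetic protein branch, Smad1 and Smad5, rose from 2.17 ± 0.19 to 3.78 ± 0.15 and 4.14 ± 0.20 FPKM, and from 4.08 ± 0.26 to 5.68 ± 0.38 and 5.91 ± 0.26 FPKM. The inhibitory Smad6 was under 1 FPKM, with 0.218 ± 0.042, 0.451 ± 0.113 and 0.522 ± 0.126 FPKM.

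Regulators split into 11 higher and 2 lower of the 18 at that level in each comparison. Wwp1, a ubiquitin ligase that acts on receptors and SMADs, rose from 38.1 ± 3.54 to 113.5 ± 10.1 and 117.4 ± 8.08 FPKM (log2 fold change 1.55 ± 0.07 and 1.6 ± 0.07, adjusted p = 5.02e-11 and 3.30e-11). Skil, the close relative of Ski, rose from 1.52 ± 0.12 to 3.07 ± 0.48 and 2.76 ± 0.21 FPKM, and the SMAD co-activator Ep300 from 13.1 ± 0.65 to 20.4 ± 0.62 and 20.6 ± 0.96 FPKM. The 2 that fell, named after their values were seen, were Ldlrad4 and the ubiquitin ligase Smurf1, the latter from 8.62 ± 0.46 to 6.64 ± 0.25 and 6.58 ± 0.26 FPKM.

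Of the 19 target genes other than Tgfbi, 12 were higher and 3 lower with miR-144 and 13 were higher and 3 lower with miR-451a. Ctgf, a matricellular protein and a common readout of TGF-β in mesenchymal cells, rose from 5.95 ± 0.97 to 27.0 ± 1.96 FPKM with miR-144 (log2 fold change 2.02 ± 0.12, adjusted p = 9.61e-10) and 27.9 ± 5.78 with miR-451a (2.05 ± 0.12, adjusted p = 7.70e-10). The stellate cell and fibroblast markers that moved with the groups are given above, and their part in Ctgf was not tested. The lists share 3 genes, Col1a1, Col1a2 and Col3a1, which stand among the 19 targets as well as among those markers. Cx3cr1, a chemokine receptor of macrophages, was at 0.125 ± 0.058 FPKM in the controls, 5.85 ± 4.59 with miR-144 and 3.92 ± 1.06 with miR-451a. Bhlhe40, a transcription repressor, fell from 62.5 ± 3.40 to 4.13 ± 0.29 and 3.94 ± 0.18 FPKM (log2 fold change -3.63 ± 0.05 and -3.68 ± 0.05), the largest difference of the list on the log2(FPKM + 1) scale and against the direction of Tgfbi. The other 2 targets that fell, named after their values were seen, were Id2 and Tgm2.

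**Figure D4:**
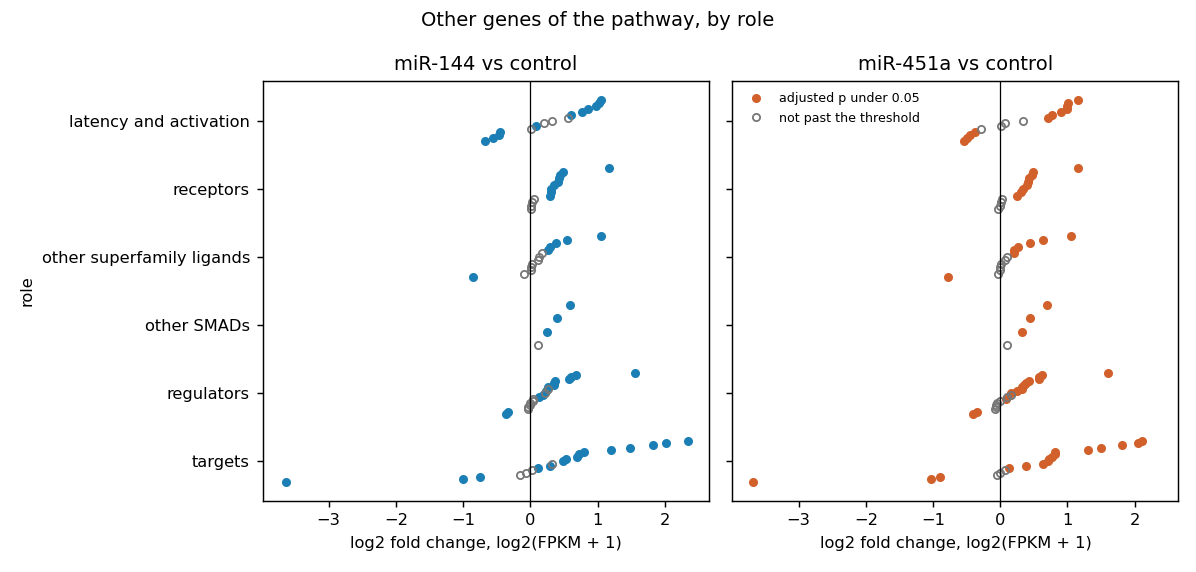
Log2 fold change against control of the 85 other pathway genes above 0, a point for each gene, by role (rows) with miR-144 (left) and miR-451a (right). Filled points have an adjusted p under 0.05. The filled points lie on both sides of 0 for latency and activation, other superfamily ligands, regulators and targets. They lie only to the right of 0 for receptors and other SMADs. Bhlhe40 lies at -3.63 and -3.68.

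**Figure D5:**
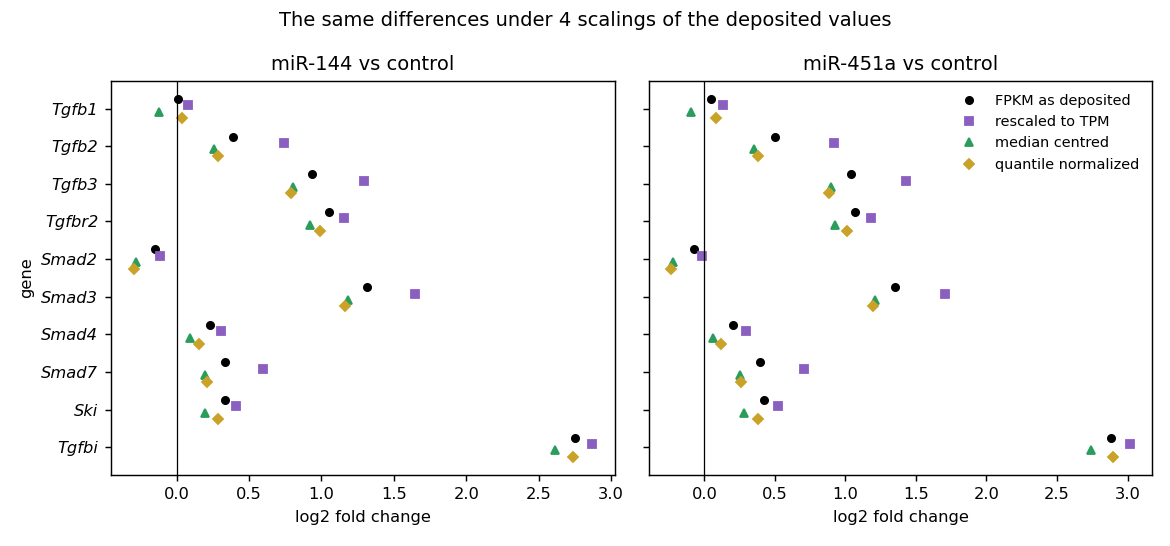
Log2 fold change against control of the 10 genes with the FPKM as deposited, rescaled to TPM, median centred and quantile normalized, with miR-144 (left) and miR-451a (right). Tgfbi, Smad3, Tgfbr2, Tgfb3, Tgfb2, Smad7 and Ski stay right of 0 in all 4, and the points of Tgfb1 fall on both sides of 0.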

How the data were processed

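RNA sequencing (Illumina) was done on sorted TAMs, 5 samples in each of 3 groups given by the labels. The authors deposited 1 table of FPKM values. Their processing notes name FastQC 0.11.2, STAR and StringTie. The genome build, annotation and strand setting are not given in the sources used here. The members and gene lists were chosen with earlier results of these data known. The 10 genes were all named, with up to 3 genes per pathway role by absolute log2 fold change, Tgfbr1 and Furin, and the 3 genes most like the member with the highest mean and the one with the largest change.

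Values were taken to log2(FPKM + 1), a scale that understates changes of low genes. A single limma model (version 3.58.1, R 4.3.3) held the 3 groups, with the prior variance following the mean level. Adjustment by Benjamini-Hochberg ran over the 11419 genes that averaged 1 FPKM or more. Tgfb2, Smad7 and other genes under that mean were taken from a fit over all 29540 genes above 0. An adjusted p under 0.05 was called. The test was checked on simulated data with independent noise and few changed genes. That setting differs from these data, and the check does not cover calls that depend on scaling or on the mixture of cells. Depth is not in the table. Steps among low values imply about 15.5 to 30.4 M fragments per sample, an approximate figure, and no member was at or under a floor of 3 fragments. These steps held 39.6% to 51.4% of the low values, where an even spread would give 10%. The step was set at the peak of the same values, so 10% is too low a share to compare with. FPKM sums ran from 283362 to 307552 per sample, and TPM was FPKM rescaled to a common sum. Gene IDs were matched to GENCODE M21, which held 99.7% of them, and 86.4% of IDs had the same symbol there. Less than 1% of the stretches of 50 bases in any member's transcripts occurred in another gene. Itgam had 2 rows, which were summed. No columns of samples were identical. Python 3.11.15 was used for summaries.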

Additional observations from a re-analysis of the deposited data

Results flagged for a closer look

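Each group of 5 samples was searched for a highest or lowest sample whose gap to its neighbor exceeded 0.71 of the range, in the 10 genes, in the pathway genes named by rule and in those that fell. None of the 30 groups of the 10 genes had one. Over all 108 groups there were 4, where chance gives about 5.4 at 1 in 20. These were Ltbp2 in miR-144 replicate 1 (5.41 FPKM, the next at 3.99), Gdf15 in miR-451a replicate 3 (2.46 FPKM, the next at 4.41), Inhbb in control replicate 5 (1.504 FPKM, the next at 0.956) and Smad6 in control replicate 3 (0.291 FPKM, the next at 0.219).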

How the results depend on the processing

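Of the alternatives tried (a pseudocount of 0.1, TPM, quantile normalization, median centring, no filter, a minimum mean of 5 FPKM, a replicate block, no trend, only the 2 groups compared, exact permutation tests and each sample left out), 140 of 144 counts of called genes and 723 of 735 log2 fold changes of the 10 genes were stable, the fold changes in direction and side of the threshold and the counts in their total, within 1.5 times. The direction of the called pathway genes was less so, with 10 lower in each comparison as deposited and 21 and 23 after median centring. Part of the stability of counts and fold changes was fixed in advance. Leaving out a sample of the group not compared cannot change a log2 fold change. The entries between the miRNAs count as well, where limma called none of the 10 genes under any alternative. A minimum mean of 5 FPKM tested 5 of the 10 genes and called 4 in each comparison against control, and called 33 pathway genes in each, of 41 tested, because fewer genes entered. Tgfb1 changed sign after median centring in both comparisons against control (-0.12 and -0.10), and, for miR-144, without control replicate 2 (-0.014) and without miR-144 replicate 4 (-0.019), where leaving out 1 sample gave -0.019 to 0.027. Smad2 and Smad4 lost calls, and Smad2 and Tgfb1 gained calls, as given beside them, and Ski between the miRNAs passed the exact test only. Leaving out 1 sample gave 8 to 9 called genes of the 10 with miR-144, 8 with miR-451a and 0 between the miRNAs, and 54 to 58, 58 to 62 and 0 pathway genes. Of the genes called among the 11419 tested, 70.1% and 70.3% were higher as deposited, 50% and 49.6% after median centring, 53.5% and 53.4% after quantile normalization and 76.5% and 77.3% as TPM.

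Same-numbered samples had correlations of deviations over 0.1 in 1, 3 and 4 of 5 pairs in the 3 comparisons. Of 15 samples, 8 correlated best with a sample of their own number in another group. The limit of 0.1 is no test of pairing, and no chance level was worked out for either count. Pairing was not taken as given, although the data hint at shared numbers in part. With a replicate block, 9, 8 and 0 of the 10 genes and 56, 60 and 0 pathway genes were called, and Tgfbi between the miRNAs had an SE of 0.044 (adjusted p = 0.687) against 0.079 (adjusted p = 0.974) without it. Precision is limited by about 41 fragments in the lowest sample of Tgfb2, and intervals cover these samples only.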
